A study of Mus musculus with 12 samples.

Results

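The genes described here are 33 genes of cartilage and of the chondrocytes that make it, measured in the aorta of ApoE-/- mice given the α7 nicotinic acetylcholine receptor agonist AZ6983 or vehicle. They were taken by symbol from a written list of cartilage genes, drawn up with earlier results of these data known, and each of the 33 symbols had a row among the 25284 genes of the count table. The list holds 7 collagens, 6 proteoglycans and related leucine-rich or lubricating proteins, 11 matrix glycoproteins and small secreted proteins, 4 transcription factors and 5 genes of growth plate signalling and sulfation. The comparison asks whether these genes go up and down together from mouse to mouse or part from each other, and whether they differ between treated and control mice.

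Cartilage is a tissue of fibrils of type II collagen, to which types IX and XI collagen are joined, with the large proteoglycan aggrecan held between them. Chondrocytes make this matrix under the transcription factor Sox9 and its partners Sox5 and Sox6. Cartilage lies close to the thoracic aorta in the airway wall, ribs and spine, and in mice with atherosclerosis chondrocyte-like cells can also form in the vessel wall. Several of the listed genes, among them aggrecan and Comp, are also made by vascular smooth muscle cells and fibroblasts, so a listed gene is not by itself a marker of cartilage.

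RNA sequencing was done on thoracic aorta of 12 male mice on a C57BL/6 background, all homozygous for a disrupted Apoe gene and all fed a high fat diet enriched in cholesterol. Without apolipoprotein E, lipoprotein particles are poorly cleared from blood and atherosclerosis develops. In 6 mice (A1 to A6) AZ6983 was delivered over 8 weeks by minipumps under the skin, at a daily 50 µmol per kg, and 6 control mice (C1 to C6) received the vehicle, cyclodextrin in saline, in the same way, all being 18 weeks old at the end. The sample labels name thoracic aorta and the design text whole aorta, and no source used here says how much of the surrounding tissue was removed.

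The authors deposited read counts per gene, and these summed to 25641329 to 29131708 in a control and 23810036 to 35864666 in a treated mouse. Reads outside every gene took 8.02% to 12.7% of the table's reads in controls and 11.2% to 14.9% in AZ6983 mice. Apoe, the targeted gene, kept 117 to 306 counts in controls and 214 to 311 with AZ6983. A disrupted gene can still be transcribed, but the source of these counts was not tested. The tissue matched its label, with 8 smooth muscle genes summing to 14432 to 19300.3 CPM (counts per library of common size, set by edgeR's TMM method) in controls and 11341 to 19280.4 in AZ6983 mice. Brown fat genes were also counted, 5 of them summing to 2627 to 4360 CPM in controls and 2309 to 5561 in AZ6983 mice. In bulk tissue, fewer cells of a type and less RNA per cell cannot be told apart.

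Of the 33 cartilage genes, 26 had enough counts for edgeR's filter and 7 did not (Col9a1, Col9a2, Matn1, Clec3a, Ucma, Scrg1 and Mia). None of the 26 differed between AZ6983 and control mice at a false discovery rate (FDR) of 10% by edgeR's quasi-likelihood test, where the share of all 15857 tested genes called was also 0.0%. At an unadjusted p under 0.05, 2 members were lower in AZ6983 mice (Col2a1 and Col11a2) against 2.81% of all tested genes, and 0 were higher against 7.38%. DESeq2, the tool of the study, run on every gene gave 29 of the members an adjusted p and called 2 of them lower at 10% FDR (Col2a1 and Clec3a), where it called 0.153% of genes lower. The paper lists both as lower in treated mice by the same tool, so these calls repeat its result and are no independent evidence. The list was drawn up with earlier results of these data known, so the share of members called says nothing about them as a set. The median log2 fold change, AZ6983 against control, was −0.10 over the 26 members and 0.01 over all tested genes, and 14 members lay below 0 and 12 above, where 47.6% of all tested genes lay below 0.

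Levels between genes were compared per length, as CPM per kb of exon. The highest of the 33 in controls was Comp at 18.6 CPM per kb, followed by Fmod at 15.2, Matn2 at 11.5 and Papss2 at 10.2. Acan stood at 4.76 CPM per kb, and Col2a1, the main collagen of cartilage, at 1.38 in controls and 0.0646 in AZ6983 mice. The collagens that accompany type II collagen in its fibrils were all below 0.5 CPM per kb in controls, with Col11a2 at 0.490, Col11a1 at 0.185, Col9a3 at 0.137, Col9a1 at 0.0976 and Col9a2 at 0.0733. Comp, Fmod and Matn2 thus stood above every collagen of the list.

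**Figure D1:**
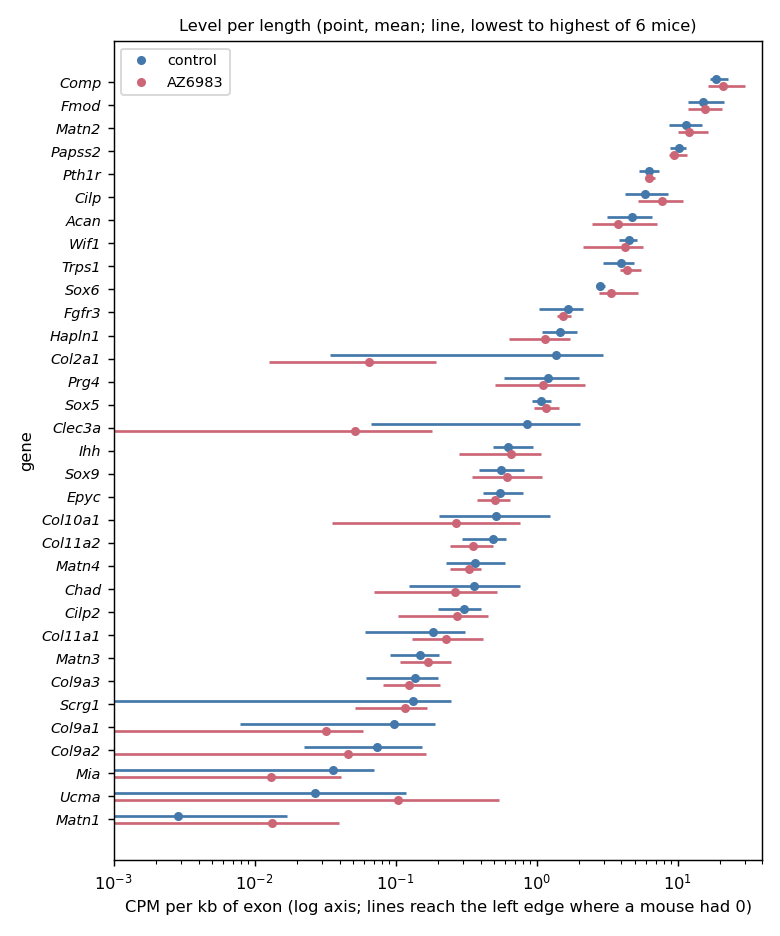
Level of each of the 33 genes in CPM per kb of exon on a log axis, with the mean of 6 controls in blue and of 6 AZ6983 mice in red and lines from the lowest to the highest mouse, which reach the left edge where a mouse had 0 counts. Comp, Fmod and Matn2 had narrow ranges at the top, and Col2a1 and Clec3a the widest separation of the means.

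Start sites are shown for the 3 members with a promoter in RefSeq whose counts went most closely with those of Col2a1 across controls, Acan, Col11a2 and Col9a1, since this is the pattern the results turn on. Each window runs from 250 bases before to 50 bases after the annotated start on GRCm38.p6, given 5′ to 3′ on the strand of the gene, with any TATAAA on that strand in capitals. Acan (chr7:79052976-79053275, plus strand) and the 2 starts of Col9a1 (chr1:24177360-24177659 and chr1:24194953-24195252, plus strand) held none of the motifs searched, and Col11a2 (chr17:34038888-34039187, plus strand) held TATAAA at position −143. The upstream start of Col9a1 is the one known from cartilage and the downstream start gives a shorter chain known from the eye, and counts per gene do not separate them.
Acan: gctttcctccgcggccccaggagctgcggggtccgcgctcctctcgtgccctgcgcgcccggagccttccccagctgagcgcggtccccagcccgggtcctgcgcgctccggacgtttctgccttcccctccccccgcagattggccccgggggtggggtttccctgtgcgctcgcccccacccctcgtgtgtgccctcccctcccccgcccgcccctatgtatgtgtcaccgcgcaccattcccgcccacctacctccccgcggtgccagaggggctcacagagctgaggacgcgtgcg
Col9a1, upstream start: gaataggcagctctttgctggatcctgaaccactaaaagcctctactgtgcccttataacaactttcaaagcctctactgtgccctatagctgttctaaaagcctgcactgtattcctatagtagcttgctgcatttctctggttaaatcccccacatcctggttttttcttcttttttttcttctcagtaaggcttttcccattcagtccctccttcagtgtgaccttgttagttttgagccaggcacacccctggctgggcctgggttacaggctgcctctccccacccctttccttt
Col9a1, downstream start: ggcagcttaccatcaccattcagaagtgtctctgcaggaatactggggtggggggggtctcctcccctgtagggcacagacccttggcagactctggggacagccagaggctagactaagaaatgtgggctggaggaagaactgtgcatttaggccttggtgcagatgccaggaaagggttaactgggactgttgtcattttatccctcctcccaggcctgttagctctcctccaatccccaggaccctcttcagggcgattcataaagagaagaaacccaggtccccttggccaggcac
Col11a2: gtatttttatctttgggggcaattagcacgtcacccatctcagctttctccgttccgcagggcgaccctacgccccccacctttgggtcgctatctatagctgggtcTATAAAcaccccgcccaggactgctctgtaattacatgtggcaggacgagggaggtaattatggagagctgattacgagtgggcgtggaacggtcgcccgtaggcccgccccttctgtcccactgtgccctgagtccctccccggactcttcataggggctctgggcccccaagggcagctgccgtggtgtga

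RefSeq held windows for 24 of the 33 members, 36 windows in all, and none was used for the other 9, among them Col2a1, Clec3a, Comp and Sox9. The SOX-type motif ACAATG or its complement CATTGT was found in 5 of the 36 member windows (13.9%, in Epyc, Sox5 and Sox6) and in 12.6% of all 32851 windows. The RUNX-type motif TGTGGT or ACCACA was in 8 member windows (22.2%) against 16.8% of all windows, and TATAAA, on the strand of the gene, in 4 (11.1%) against 8.32%. These shares were not tested against each other, and a match of letters is a description of the window and not of binding.

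Col2a1 encodes the chain of type II collagen, the defining fibril of cartilage, and lies at chr15:97975602-98004695 on the minus strand (GRCm38, GENCODE M21). Its counts in controls were 77 in C1, 8 in C2, 493 in C3, 67 in C4, 782 in C5 and 796 in C6. In AZ6983 mice they were 4 in A1, 50 in A2, 3 in A3, 18 in A4, 20 in A5 and 6 in A6. The controls ran from 3 mice with at least 493 counts through C1 and C4 to C2 with 8, and C3, C5 and C6 together held 89.1% of all counts of the gene. Of the 6 controls, 5 were above every AZ6983 mouse, while C2 lay among the AZ6983 mice, so the groups overlapped. From the lowest to the highest of the 12 mice Col2a1 spanned 230.6-fold in CPM, and 85.7-fold within the controls alone.

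For Col2a1, control mice averaged 12.8 ± 12.6 CPM and AZ6983 mice 0.597 ± 0.644 (SD, n = 6 each). By edgeR's quasi-likelihood test its log2 fold change was −4.41 ± 1.001 (SE, the standard error, adjusted p = 0.447), and it lay between −5.15 and −4.05 when each mouse was left out in turn. In an exact permutation test of the log2 CPM over every assignment of the 12 mice to groups of 6, two-sided, the difference had p = 0.0152. DESeq2 gave an adjusted p = 0.00654. The share of reads on no gene differed between most controls and the AZ6983 mice. The 5 controls with 67 or more counts had shares of 8.02% to 10.4% and library numbers 3 to 7. C2, with 8 counts, had a share of 12.7%, within the range of AZ6983 mice, and library number 12, where AZ6983 mice held 1, 2 and 8 to 11. Within those 5 controls the order was the other way. C3, C5 and C6, with most Col2a1, had the higher shares, 9.81% to 10.4%, against 8.02% in C1 and 9.29% in C4. With this share as a covariate the log2 value for Col2a1 was −6.26 ± 1.79 in edgeR (SE, adjusted p = 0.9998) and −6.50 ± 1.33 in DESeq2 (SE, adjusted p = 0.0130). What the library number stands for is not given in the sources used here.

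**Figure D2:**
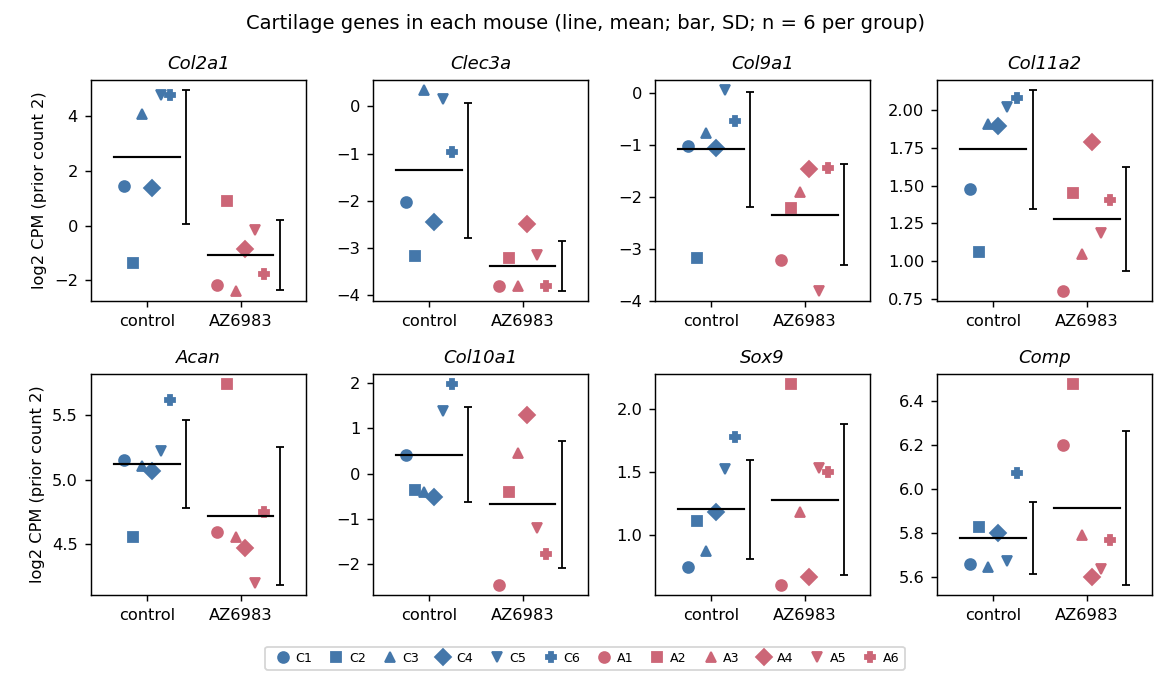
Log2 CPM (prior count 2) of 8 cartilage genes, 1 symbol per mouse, with blue for controls and red for AZ6983 mice, a line for the mean of 6 mice and a bar for the SD, and axes that differ between panels. C5, C6 and C3 lead Col2a1, C2 is the lowest control for Col2a1, Clec3a, Col9a1, Col11a2 and Acan, and A2 leads Acan, Sox9 and Comp.

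Clec3a encodes a small C-type lectin of cartilage and lies at chr8:114418086-114425846 on the plus strand. It had 5, 1, 35, 3, 30 and 13 counts in C1 to C6 and 0, 1, 0, 4, 1 and 0 in A1 to A6, a total of 87 in controls and 6 in AZ6983 mice. A count of 0 allows up to 3 counts at this depth (95% confidence, counting error only). C3, C5 and C6, the mice high in Col2a1, were also the highest here, and 3 AZ6983 mice had no count while every control had at least 1. The exact permutation test gave p = 0.00649, two-sided. It did not pass the filter of edgeR, and DESeq2 on every gene gave a log2 fold change of −3.95 ± 1.046 (SE, adjusted p = 0.0641).

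Type IX collagen coats the type II fibril, and its α1 chain is encoded by Col9a1 (chr1:24177610-24252684, plus strand). Col9a1 had 12, 1, 15, 11, 28 and 18 counts in C1 to C6 and 1, 4, 5, 11, 0 and 8 in A1 to A6. In the controls its order from mouse to mouse was the same as that of Col2a1, from C2 at the bottom to C5 at the top in CPM. Control mice averaged 0.495 ± 0.304 CPM and AZ6983 mice 0.161 ± 0.126 (SD, n = 6 each), with an exact permutation p = 0.0693 on log2 CPM and 0.0260 on CPM. It did not pass the filter of edgeR.

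Col11a2, a chain of the type XI collagen found inside cartilage fibrils (chr17:34039437-34066685, plus strand), had 78, 51, 107, 98, 115 and 122 counts in C1 to C6. In A1 to A6 it had 45, 74, 51, 127, 54 and 69. C2 was the lowest control here as for Col2a1, and C6 the highest of all mice in CPM, but the range over the 12 mice was only 2.48-fold. Control mice averaged 3.37 ± 0.827 CPM and AZ6983 mice 2.41 ± 0.598 (SD, n = 6 each), and edgeR gave a log2 fold change of −0.48 ± 0.209 (SE, adjusted p = 0.478). The exact permutation test gave p = 0.0606 on log2 CPM and p = 0.0455 on CPM, so the call rested on the scale.

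The other chains of these collagens had other orders among the mice. Col9a2 had 2 to 14 counts in controls and 0 to 19 in AZ6983 mice, and Col9a3 6 to 22 and 8 to 30, and both were highest in A4, where Col2a1 had 18 counts. Col11a1, the partner of Col11a2 in type XI collagen but widely made outside cartilage, had 22 to 114 counts in controls and 41 to 147 in AZ6983 mice, and edgeR gave a log2 fold change of 0.29 ± 0.421 (SE, adjusted p = 0.821), which turned to −0.43 with the covariate for reads on no gene. Col10a1, the collagen of hypertrophic chondrocytes in the growth plate, had 36, 18, 20, 17, 73 and 114 counts in C1 to C6 and 3, 19, 33, 89, 9 and 6 in A1 to A6. C5 and C6 were high in both Col10a1 and Col2a1, but C3, with 493 counts of Col2a1, had only 20 of Col10a1, and A4 had 89. For Col10a1 edgeR gave a log2 fold change of −0.92 ± 0.677 (SE, adjusted p = 0.617). Col10a1 overlaps Nt5dc1 on the other strand and Col9a3 overlaps Tcfl5 in the same way, as do Chad, Epyc, Fgfr3, Hapln1, Matn2, Matn4, Prg4, Pth1r, Sox5 and Sox6 with other genes or transcripts, and whether the counting used strand is not given in the sources used here.

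Acan encodes aggrecan, the proteoglycan that binds water in cartilage and is also found in the aortic wall (chr7:79053483-79115099, plus strand). It had 1019, 594, 998, 901, 1077 and 1440 counts in C1 to C6 and 650, 1488, 597, 829, 448 and 720 in A1 to A6. C2 was again the lowest control, but the highest of all 12 mice was A2, and the range was 2.92-fold against 230.6-fold for Col2a1. Control mice averaged 35.5 ± 8.18 CPM and AZ6983 mice 28.0 ± 12.8 (SD, n = 6 each), and edgeR gave a log2 fold change of −0.34 ± 0.243 (SE, adjusted p = 0.605). Without A2 it was −0.65 (adjusted p = 0.427 by edgeR), a move of more than 1.5 times.

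The ratio of Acan to Col2a1 counts within a mouse varied mainly with Col2a1. Col2a1 spanned 230.6-fold in CPM over the 12 mice, and Acan 2.92-fold. The ratio therefore cannot show whether a part of Acan rose with Col2a1. For each count of Col2a1 there were 1.38 counts of Acan in C5, 1.81 in C6 and 2.02 in C3. The ratio was 13.2 in C1, 13.4 in C4 and 74.2 in C2, and 22.4 to 199 in AZ6983 mice. Between C4 and C5 the Col2a1 count went from 67 to 782 while that of Acan went from 901 to 1077. Between C2 and C6, the ends of the controls in counts of both genes, Col2a1 went from 8 to 796 and Acan from 594 to 1440. The counts of Col9a1 per count of Col2a1 varied less among controls, from 0.0226 to 0.164, and those of Comp more, from 1.88 to 179. In AZ6983 mice the ratio for Col9a1 ran from 0 in A5 to 1.67 in A3, on few counts of both genes. Acan thus had at least 448 counts in every mouse, also in those with under 10 counts of Col2a1.

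Hapln1, the link protein that ties aggrecan to hyaluronan, had 164 to 329 counts in controls and 92 to 275 in AZ6983 mice, and edgeR gave a log2 fold change of −0.36 ± 0.200 (SE, adjusted p = 0.537). Chad, or chondroadherin, had 6 to 37 and 3 to 33 counts and was highest in C5. Prg4, the lubricin of joint surfaces, had 72, 96, 76, 174, 201 and 250 counts in C1 to C6 and 80, 262, 116, 82, 92 and 152 in A1 to A6. C5 and C6 were the highest controls for Prg4 as for Col2a1, but C3 was low and A2 the highest of all. Fmod, a collagen-binding proteoglycan of many connective tissues, had 1061 to 2083 and 958 to 1900 counts, and Epyc, a relative of it found in cartilage, had 27 to 59 and 27 to 46. The log2 fold changes of Chad, Epyc, Prg4 and Fmod were −0.43, −0.12, −0.11 and 0.04. None of these 6 genes passed 10% FDR, 5 lay below 0 and 1 above, and their median was −0.23.

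Comp and Matn2, the most abundant glycoproteins of the list, spanned 1.84-fold and 1.87-fold in CPM over the 12 mice. Comp, which bridges collagen fibrils in cartilage, tendon and vessel wall, had 1434 to 1975 counts in controls and 1219 to 2477 in AZ6983 mice, and edgeR gave a log2 fold change of 0.16 ± 0.146 (SE, adjusted p = 0.681). Matn2, the matrilin found most widely outside cartilage, had 1567 to 2703 and 1546 to 2751 counts and a log2 fold change of 0.07. C2, with 0.316 CPM of Col2a1, had 56.7 CPM of Comp and 77.3 of Matn2, and C5, with 27.1 CPM of Col2a1, had 51.0 and 67.7. Cilp, a secreted protein of the middle zone of cartilage, had 517 to 913 and 598 to 1286 counts, and edgeR gave a log2 fold change of 0.41 ± 0.199 (SE, adjusted p = 0.503). With the covariate for reads on no gene the values of Cilp and Comp turned to −0.045 and −0.027. Its relative Cilp2 had 25 to 50 and 12 to 54 counts.

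The matrilins of cartilage itself were scarce. Matn1, a marker of mature cartilage such as that of the trachea, had 1 count in C6, 2 in A3, 3 in A4 and 0 in the other 9 mice. C3 and C5, with 493 and 782 counts of Col2a1, had 0 counts of Matn1. Matn3, of growth plate cartilage, had 7 to 18 counts in controls and 8 to 19 in AZ6983 mice, and Matn4 had 34 to 90 and 35 to 56. Ucma, made by young chondrocytes of the growth plate, had 18 counts in A4 and at most 3 in any other mouse. Scrg1 had 0 to 5 counts in controls and 1 to 4 in AZ6983 mice, and Mia, a small protein secreted by chondrocytes, had 0 to 2 and 0 to 1. Mia overlaps another gene on the same strand, so its counts may be short of reads set aside as ambiguous. Of the 11 glycoproteins and small secreted proteins 6 were tested, 2 lay below 0 and 4 above with a median of 0.11, and 0 passed 10% FDR.

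Sox9, the transcription factor that sets and keeps the chondrocyte fate, had 46, 53, 51, 59, 81 and 99 counts in C1 to C6 and 39, 126, 56, 57, 69 and 74 in A1 to A6. Control mice averaged 2.30 ± 0.667 CPM and AZ6983 mice 2.54 ± 1.14 (SD, n = 6 each), and edgeR gave a log2 fold change of 0.14 ± 0.286 (SE, adjusted p = 0.879), and without A2 it was −0.12. C3, with 493 counts of Col2a1, had 51 of Sox9, and C2, with 8, had 53. C5 and C6, the controls with most Col2a1, were also the highest controls in Sox9, at 81 and 99 counts. Sox5, its partner, had 374 to 537 and 378 to 519 counts, and Sox6 1054 to 1306 and 1048 to 1896, with the highest in A5. Trps1, a repressor that acts in growth plate chondrocytes and other mesenchymal cells, had 1145 to 1924 and 1369 to 2061 counts. All 4 log2 fold changes lay above 0, between 0.11 and 0.26, but with the covariate for reads on no gene those of Sox9, Sox5 and Trps1 lay below 0. Of the 4 genes 0 passed 10% FDR, the smallest adjusted p being 0.530 from edgeR.

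The genes of growth plate signalling and sulfation had log2 fold changes between −0.12 and 0.09. Papss2, which makes the sulfate donor for cartilage proteoglycans, had 870 to 1232 counts in controls and 792 to 1225 in AZ6983 mice. Pth1r, the receptor of parathyroid hormone and its related peptide, had 427 to 583 and 435 to 658 counts, and edgeR gave a log2 fold change of 0.01 ± 0.0778 (SE, adjusted p = 0.973). Ihh, the ligand that prehypertrophic chondrocytes release, had 43 to 82 and 21 to 83 counts. Fgfr3, a brake on chondrocyte growth, had 219 to 411 and 244 to 393, and its lowest value was in C6, 1 of the 3 mice with most Col2a1. Wif1, a secreted Wnt inhibitor, had 250 to 370 and 126 to 433. Of the 5 genes 3 lay below 0 and 2 above, and the smallest adjusted p was 0.611 from edgeR.

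**Figure D3:**
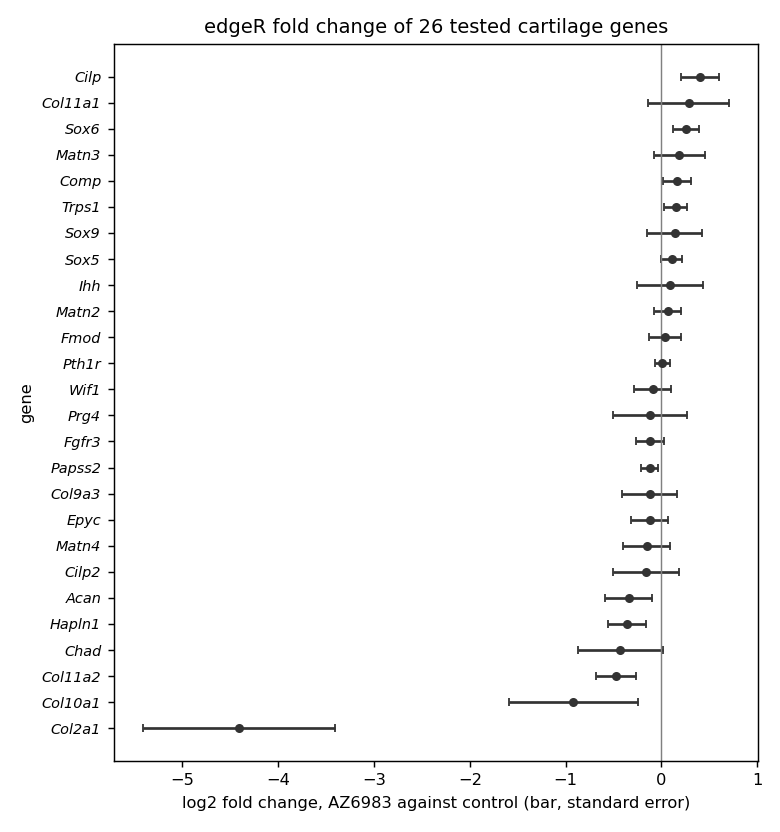
Log2 fold change of AZ6983 against control mice for the 26 tested cartilage genes, with bars for the standard error from edgeR's quasi-likelihood fit. Col2a1 lies at −4.41, and the other 25 between −0.92 and 0.41.

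The genes were then compared with Col2a1 mouse by mouse in log2 CPM, over the 12 mice and within each group of 6, with permutation tests of r (100000 draws over 12 mice, exact within a group). Over the 12 mice Clec3a had Pearson's r = 0.927 with Col2a1 (permutation p = 0.0001, Spearman's rho = 0.923, permutation p = 0.00012), and r was 0.901 without C5 and C6, the 2 mice farthest from the median. Col11a2 had r = 0.843 (permutation p = 0.00072, adjusted p = 0.674) and rho = 0.902 (permutation p = 0.00015, adjusted p = 0.982), and r was 0.747 without those 2 mice. Acan had r = 0.702 (permutation p = 0.0125, adjusted p = 0.999) and rho = 0.685 (permutation p = 0.0167, adjusted p = 0.982), and 0.587 without them. Col9a1 had r = 0.714 (permutation p = 0.0100) and rho = 0.762 (permutation p = 0.00559), and 0.532 without them. Adjustment was over the 15856 other tested genes, and none of the 25 other tested members passed 10% FDR, as 0.0% of all those genes did. At an unadjusted p under 0.05 there were 2 members, Col11a2 and Acan, and 4.09% of all genes.

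Since Col2a1 was lower in most AZ6983 mice, a correlation over all 12 carries the difference between the groups, so the groups were also taken apart. Within the controls r with Col2a1 was 0.910 for Col9a1 (exact permutation p = 0.00139), 0.909 for Col11a2 (exact permutation p = 0.00556), 0.909 for Clec3a (exact permutation p = 0.0208) and 0.849 for Acan (exact permutation p = 0.0139). Spearman's rho was 1 for Col9a1 (exact permutation p = 0.00278), 0.886 for Col11a2 and for Acan (exact permutation p = 0.0333) and 0.829 for Clec3a (exact permutation p = 0.0583). These p-values are not adjusted for the 32 members compared. Within the AZ6983 mice, where Col2a1 did not pass 50 counts, r was −0.182 for Col9a1, 0.505 for Col11a2, 0.60 for Clec3a and 0.536 for Acan, and no exact permutation p was under 0.05 for these 4. Whether r differed between the groups was not tested. Other members over 0.70 within controls were Hapln1 at 0.791, Scrg1 at 0.788, Col9a2 at 0.768 and Sox5 at 0.702. Of the 25 tested members 4 were over 0.70 within controls (16%), where 3.54% of all genes were. Within AZ6983 mice only 1 was, Pth1r at 0.720 (4%), where 5.79% of all genes were.

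The other members had a lower r over the 12 mice than Clec3a, Col11a2, Col9a1 and Acan. Over the 12 mice r was 0.577 for Col10a1 (permutation p = 0.0509) and only 0.219 without C5 and C6, and so rested on those mice. Col9a2 had r = 0.589 (permutation p = 0.0450), and 0.403 without C5 and C6, and Chad had 0.548 and Col9a3 0.472 (permutation p = 0.0643 and 0.123). The r was 0.414 for Hapln1 and 0.327 for Prg4 (permutation p = 0.185 and 0.295). For the transcription factors it was 0.295 for Sox9, 0.217 for Sox5, −0.219 for Sox6 and −0.141 for Trps1, and for the abundant glycoproteins −0.0751 for Comp, −0.0470 for Matn2 and −0.474 for Cilp. Matn3 had r = −0.955 within AZ6983 mice (exact permutation p = 0.00417) and 0.637 within controls (exact permutation p = 0.164), on at most 19 counts per mouse. Of the 25 tested members 15 had a positive r, with a median of 0.155, where 48.8% of all genes did and the median was −0.01.

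**Figure D4:**
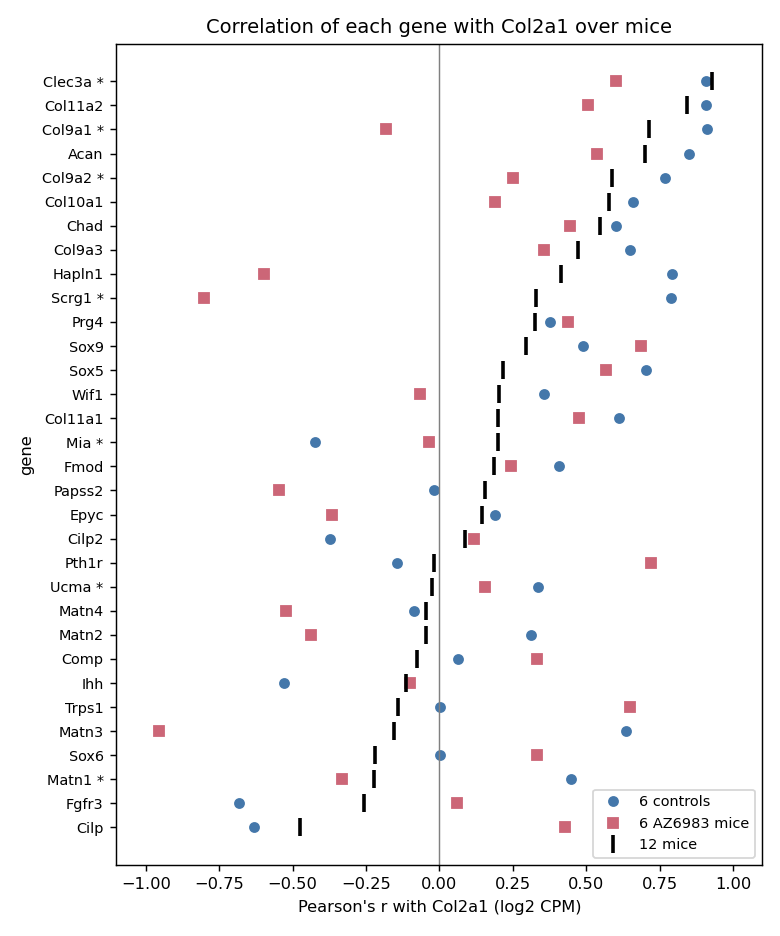
Pearson's r of log2 CPM with that of Col2a1 for the other 32 genes, over 12 mice (black ticks), 6 controls (blue circles) and 6 AZ6983 mice (red squares), with an asterisk for genes under edgeR's filter on low counts. Clec3a, Col11a2, Col9a1 and Acan have the 4 highest ticks, from 0.927 to 0.702.

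No mouse was high in all of the genes. A2 had the highest CPM of 9 of the 26 tested members, namely Acan, Col11a1, Comp, Sox9, Prg4, Cilp, Cilp2, Trps1 and Wif1. C5 was highest in 5 of the 33, including Col2a1, Col9a1, Hapln1 and Chad, and C6 in 3. A4 was highest in Col9a2, Col9a3, Matn1 and Ucma, with 18 counts of Col2a1. A5 was lowest in 7 members, Acan, Hapln1 and Wif1 among them. A2 also had the most Col2a1 of the AZ6983 mice, with 50 counts, and C6, with 27.1 CPM of Col2a1, came second to A2 in Acan at 49.0 CPM and in Sox9 at 3.37 CPM and was the highest control in Comp at 67.2 CPM. C3 and C5, also high in Col2a1, had 34.4 and 37.3 CPM of Acan and 50.0 and 51.0 CPM of Comp. Of the 33 genes 0 had groups that did not overlap, against 0.41% of all tested genes.

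**Figure D5:**
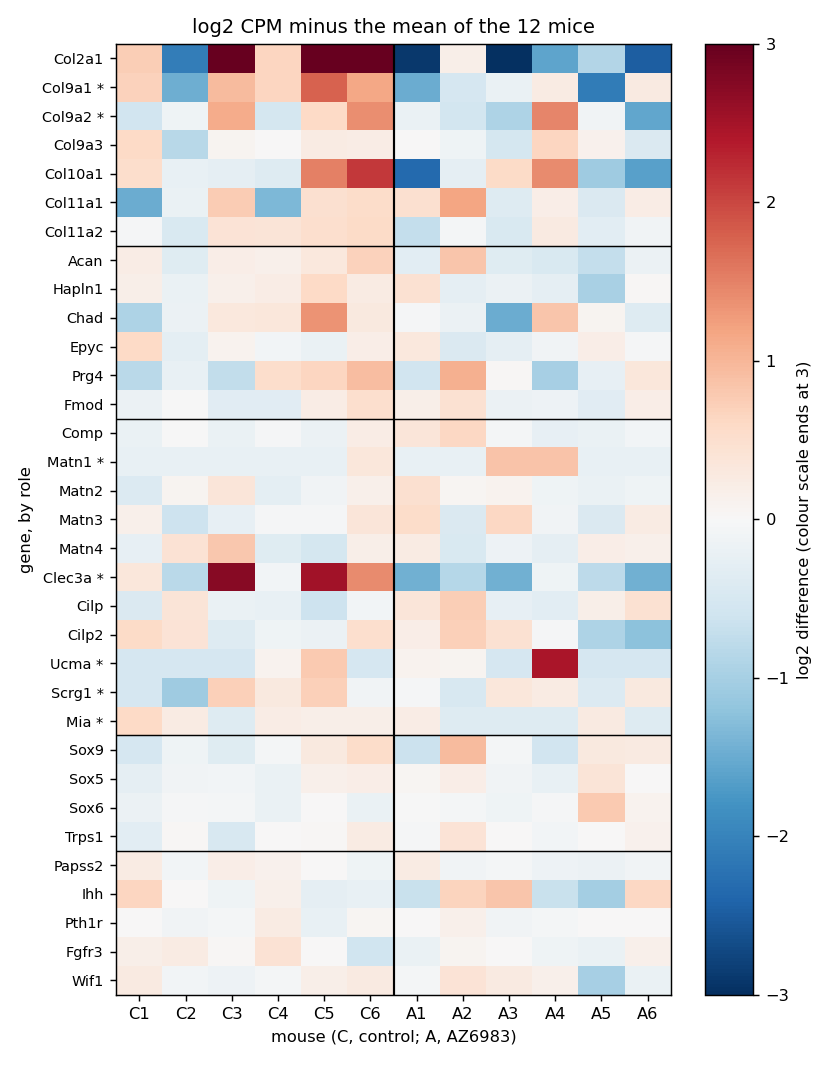
Log2 CPM (prior count 2) of the 33 genes in each mouse minus the mean of the 12 mice, by role, with an asterisk for genes under edgeR's filter on low counts and a colour scale that ends at 3. Red cells of Col2a1, Clec3a and Col9a1 share C3, C5 and C6, whereas A2 is red in Acan, Sox9, Comp and Prg4 and A4 in Col9a2, Col10a1 and Ucma.

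Markers of other tissues were read in the same mice. Ibsp, the bone sialoprotein, had 30, 11, 45, 17, 323 and 286 counts in C1 to C6 and 7 to 21 in AZ6983 mice, with r = 0.834 to Col2a1 over the 12 mice (adjusted p = 0.674, permutation test). C5 and C6 were thus high in Col2a1, Col10a1 and Ibsp together, and C3 in Col2a1 and Clec3a with 45 counts of Ibsp. The other defining bone genes Bglap, Bglap2, Dmp1, Mepe, Sp7 and Ifitm5 had at most 10 counts in any mouse, C5 and C6 included. The 14 bone genes summed to 463 to 622 CPM in controls and 299 to 562 in AZ6983 mice, with the highest sum in C1. Most of each sum was 1 gene, Sost, with 10196 to 15734 counts in controls and 5900 to 15412 in AZ6983 mice. The sum thus says little about Ibsp and the other bone genes. Runx2, a transcription factor of osteoblasts and hypertrophic chondrocytes, had 25, 15, 20, 29, 40 and 64 counts in C1 to C6, highest in C5 and C6, and 27 to 46 in AZ6983 mice. Of the 8 bone genes tested 0 passed 10% FDR in edgeR. At an unadjusted p under 0.05 in edgeR 3 were lower in AZ6983 mice, against 2.81% of all tested genes. These were Ibsp, Phex and Omd, with log2 fold changes of −2.99, −0.30 and −0.58. The paper, which used DESeq2 at 10% FDR, lists Ibsp among the genes lower in treated mice, as it does Col2a1 and Clec3a. The part of the bone genes in the values of the cartilage genes was not tested.

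Of 20 further cartilage genes, all with a row, 16 were tested and 0 passed 10% FDR in edgeR. At an unadjusted p under 0.05 in edgeR 2, Slc26a2 and Gli1, were higher in AZ6983 mice, against 7.38% of all tested genes, and 0 were lower, against 2.81%. The 20 genes summed to 859 to 1108 CPM in controls and 635 to 1043 in AZ6983 mice, highest in C6 and lowest in A5. Most of each sum was Susd5, Cytl1 and Wwp2, and Susd5 was itself highest in C6, at 16423 counts, and lowest in A5, at 5634. Among the 20 genes, 3110079O15Rik (Snorc), Nkx3-2, Panx3 and Otor, known from cartilage or bone, had at most 10 counts in any mouse. In C5, with 782 counts of Col2a1, they had 2, 3, 2 and 2 counts. Panx3 had 1, 2 and 1 counts in C3, C5 and C6 and 0 in the other 9 mice. Mmp13, a collagenase of hypertrophic chondrocytes, had 79, 49, 41, 62, 107 and 47 counts in C1 to C6 and 33, 105, 18, 20, 18 and 23 in A1 to A6, and edgeR gave a log2 fold change of −0.81 ± 0.456 (SE, adjusted p = 0.541), with an exact permutation p = 0.0498. Lect1, the chondromodulin of cartilage, had 7 to 20 counts in controls and was highest in A4 at 32.

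A4 also stood apart in other lists. Its 9 airway epithelium genes with a row summed to 99.6 CPM, where the next mouse had 20.9, its thymocyte genes to 867 CPM against at most 33.6, and its notochord list, of which only Foxa2 and 3 keratins had a row, to 84.5 against at most 12.4. This was the mouse with the highest Col9a2, Col9a3, Matn1 and Ucma. A2, highest in Comp, Prg4 and Cilp, had the highest sum of 4 tendon genes, 19.6 CPM, where A6 had 17.3 and controls 8.04 to 15.9. Thbs4 was the largest part of that sum in A2 and A6, at 277 and 281 counts, where controls had 27 to 239. In A2, Scx at 198 counts and Tnmd at 32 were above every control, and Mkx at 37 was not. A5, lowest in 7 members, had the lowest smooth muscle sum, 11341 CPM, and the highest brown fat sum, 5561. The skeletal muscle genes summed to 6.44 to 629 CPM in controls, highest in C2, and to 19.8 to 625 in AZ6983 mice, and the osteoclast genes to 97.9 to 137 and 77.4 to 123. The part of these tissues in the values of the cartilage genes was not tested.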

How the data were processed

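Thoracic aortas of 6 control and 6 AZ6983 mice were compared. The deposited values are raw read counts per gene symbol, which the authors made from stranded, ribosome-depleted total RNA libraries read at both ends. The submitters' processing notes name CASAVA 1.8.2, STAR 2.5.2b, HTSeq 0.6.1p1 and mm10 without their roles. The annotation and the strand setting are not given in the sources used here. There was no poly(A) selection, so unspliced transcripts add to the counts. The 3 rows that name no gene (8.02% to 14.9% of reads on no gene, 18.1% to 23.2% aligned to several places, 0.606% to 0.698% ambiguous) were left out. Reads set aside in these ways are missing from overlapping or near-identical genes. Counts on genes per mouse were 23810036 to 35864666, so genes with few counts carry counting error beside the spread between mice.

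Groups came from the labels. The column of A1 was matched by 3 digits of its number. Labels give no batch, litter or pairing. No library was a copy of another (chi-square per degree of freedom 12.0 to 226 over 66 pairs).

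Counts were fitted with edgeR 4.0.16 in R 4.3.3 (TMM, filterByExpr, quasi-likelihood test, Benjamini-Hochberg over 15857 genes, 10% FDR). Log2 CPM used a prior count of 2. Standard errors (SE) were taken from the log2 fold change and F, as the former over the root of the latter. Single genes were compared by exact permutation over every assignment of mice to groups, two-sided, smallest p 0.00216. Alternatives were DESeq2 1.42.0, limma-voom (limma 3.58.1), other normalisations and filters, 5% FDR, a covariate for reads on no gene, a prior count of 0.5 and each mouse left out. The steps were tested on simulated data.

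The members, the role lists and the marker lists were chosen with earlier results of these data known. Every member is named, with Apoe and the 10 other genes most like Col2a1 by r centred on group means. Marker genes named singly were chosen after their values were seen. Exon lengths and positions are from GENCODE M21 on GRCm38 by symbol, which held 33 of 33 members, and promoter windows from RefSeq on GRCm38.p6.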

Additional observations from a re-analysis of the deposited data

Results flagged for a closer look

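In each group of 6 mice the highest and the lowest value of each gene were examined for a gap to the next mouse that passed Dixon's 95% critical value. Of 66 groups 6 had such a mouse, where chance gives about 3.3. Acan in A2 stood at a log2 CPM of 5.74, where the other AZ6983 mice lay between 4.20 and 4.75, on 1488 counts against 448 to 829. Sox6 in A5 stood at 6.28 against 5.36 to 5.61, and Papss2 in A1 at 5.43 against 5.02 to 5.13. Ucma in A4 stood at −0.86 against −3.81 to −3.21, on 18 counts against 0 or 1. Among controls Col9a1 in C2 stood at −3.18 against −1.06 to 0.06, on 1 count against 11 to 28. Matn1 in C6 stood at −3.25 against −3.81, on 1 count against 0. Col2a1 itself had no such mouse in either group, since its controls were spread over the whole range.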

How the results depend on the processing

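No cartilage gene passed 10% FDR in edgeR under other normalisations, filters, 5% FDR, the covariate or without any mouse, nor in limma-voom. DESeq2 called 92 genes and 2 members on every gene, 84 and 1 on the filtered genes, and 2 and 1 with a covariate for reads on no gene, an alternative chosen after seeing the data. The cause of the gap between the tools was not tested. Leaving out each mouse, edgeR called 0 to 27 genes, 27 without A5, 1 without C6 and 1 without A1, and 0 members. For Col2a1 the adjusted p of edgeR lay between 0.188 and 0.719 without each mouse. Exact permutation p-values under 0.05 numbered 2 of the 33 members on log2 CPM and 4 on CPM, where Col9a1 and Col11a2 were added. They were not adjusted, and the share of all genes under 0.05 in this test was not computed. These numbers are therefore no result about the members as a set.

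Log2 fold changes of some members changed sign, none of them called. With the covariate in edgeR they were 0.51 for Col9a3, −0.43 for Col11a1, −0.027 for Comp, −0.62 for Sox9, −0.0097 for Sox5, 0.34 for Epyc, −0.045 for Cilp, −0.25 for Fmod, −0.12 for Trps1, 0.074 for Papss2 and −0.083 for Ihh. Pth1r was at −0.010 without the filter and at −6.3e-05 in DESeq2, and Ihh at −0.090 in limma-voom. In permutation tests the difference of Ihh was 0.121 on CPM and that of Scrg1 0.12 with a prior count of 0.5. Without each mouse the log2 fold change ranged from −0.34 to 0.011 for Col9a3, from −0.041 to 0.14 for Matn2, from −0.28 to 0.029 for Matn4, from −0.12 to 0.28 for Sox9, from −0.21 to 0.011 for Epyc, from −0.44 to 0.087 for Prg4, from −0.38 to 0.0060 for Cilp2, from −0.072 to 0.16 for Fmod, from −0.11 to 0.24 for Ihh, from −0.046 to 0.065 for Pth1r and from −0.21 to 0.026 for Wif1. The r with Col2a1 was 0.00079 for Pth1r with edgeR's RLE normalisation in place of TMM. Centred on group means, r was 0.163 for Comp, 0.0749 for Matn2, 0.148 for Sox6, −0.106 for Cilp2, 0.171 for Trps1, −0.191 for Papss2 and 0.0383 for Pth1r. Without each mouse r ranged from −0.238 to 0.0801 for Comp, from −0.266 to 0.207 for Matn2, from −0.347 to 0.0347 for Matn3, from −0.425 to 0.201 for Matn4, from −0.134 to 0.196 for Cilp2, from −0.0872 to 0.386 for Fmod, from −0.36 to 0.179 for Trps1, from −0.0142 to 0.389 for Papss2, from −0.264 to 0.0556 for Ihh, from −0.123 to 0.343 for Pth1r and from −0.371 to 0.156 for Fgfr3. The causes were not tested. No paired analysis was possible because the labels give the groups no shared replicate numbers. At 0 to 35 counts per mouse the 7 genes under the filter allow no estimate of a modest difference.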

Other observations

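Outside the listed genes, those whose log2 CPM went most closely with that of Col2a1, centred on group means over the 12 mice, were Gm12669 with r = 0.846, Pcdhb9 with r = 0.819, Pcdhb13 with r = 0.799, Nt5c2 with r = 0.788, Ube2d1 with r = 0.777, Trp53bp2 with r = 0.769, 2310040G07Rik with r = 0.767, Mycn with r = 0.761, Gm16536 with r = 0.761 and Gpr39 with r = 0.736. These are descriptions of the order among 15856 genes, and none passed 10% FDR. Their ranges were narrow beside that of Col2a1. Gm12669 had 7 to 17 counts in controls and Nt5c2, a nucleotidase, 918 to 1340. Pcdhb9 and Pcdhb13 are protocadherins of 1 cluster of similar genes, so their counts may share or lose reads. Col11a2, at a centred r of 0.76, was the only tested member over 0.70 on this scale. Without centring, Mycn had the highest r with Col2a1 of the 15856 genes that passed the filter on low counts, 0.879, on 12 to 29 counts in controls and 10 to 21 in AZ6983 mice.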
